A study of Sus scrofa with 18 samples.

Results

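Prostaglandins are made from arachidonic acid, which phospholipase A2 releases from membranes. Cyclooxygenases convert it to prostaglandin H2, and terminal synthases turn that intermediate into prostaglandin E2, prostacyclin and other products. Transporters carry the products across the cell membrane, and oxidation in the cytoplasm ends their action. In the pig uterus these lipids act on smooth muscle contraction, blood flow, luteolysis and the establishment of pregnancy.

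The chromatin marks at 10 genes of this pathway were examined. The genes were taken from a list by function: PLA2G4A (arachidonate release), PTGS1 and PTGS2 (cyclooxygenases), PTGES, PTGES2, PTGES3 and PTGIS (terminal synthases), SLCO2A1 and ABCC4 (transport) and HPGD (breakdown). Each was found once among 28210 RefSeq genes on the named chromosomes of Sscrofa11.1, 19550 of which are protein-coding. All peaks from 3 kb before to 3 kb after a gene model were assigned to that gene. The rule uses no measured value, although the list was drawn up with earlier results of these data known.

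H3K4me3, which is typical of active promoters, and H3K27ac, which is typical of active promoters and enhancers, had been profiled in uterine muscle of Yorkshire gilts on day 15. Muscle layers were taken from pregnant gilts, the inner circular muscle (GD15M_CM) and the outer longitudinal muscle (GD15M_LM), and the circular layer also from non-pregnant gilts at the same day of the cycle (CD15M_CM), all dissected from the mesometrial side. Pregnant gilts had been mated naturally, and no transgene, drug or other treatment is named in the labels. Nuclei were processed by CUT&Tag, in which a transposase tethered to the antibody cuts the marked DNA, with IgG as control. There were 2 gilts in each of the 3 groups and 18 libraries in all. The study compared gene expression between the layers with a paired design. The labels do not say whether the 2 pregnant layers profiled here came from the same gilts, so the groups may not be independent animals.

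The replicates of a group had been pooled before peaks were called, so each of the 6 combinations of group and mark has 1 peak list and 1 value per peak. No spread between gilts, standard error or test between groups can be had from these lists, and all differences are descriptions of these pooled libraries. A peak has a fold enrichment over IgG. Since folds of lists of different depth and background are not on a common scale, each was converted to its percentile in its own list, where 100 is the highest fold and 0 stands for no peak listed. A gene was given the percentile of its strongest peak. A difference of at least 20 percentile points was counted as large, and the same count over all protein-coding genes with a peak in either list is given beside it. The read depth of each library was not used here, so no counting interval is given.

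For H3K4me3 there were 33599, 31910 and 36331 peaks listed for GD15M_CM, GD15M_LM and CD15M_CM, and the H3K27ac lists held 79877, 57010 and 82037. The 80th percentile corresponded to folds of 15.5, 19.8 and 18.5 for H3K4me3 and of 4.55, 5.21 and 4.57 for H3K27ac in the same order. Smooth muscle genes carried both marks in every list, with peaks of each mark at 10 of 10 markers such as MYH11, ACTA2 and DES. Their median H3K4me3 percentile was 77.0 in GD15M_CM, 91.0 in GD15M_LM and 88.9 in CD15M_CM. Markers of other cells were also marked. Of 10 epithelial markers, 10 ranked higher for H3K4me3 in GD15M_CM than in GD15M_LM (medians 77.6 and 57.4) and 9 did so for H3K27ac (medians 76.2 and 16.9). In GD15M_LM, KRT18, KRT19 and GRHL2 had no H3K27ac peak and ELF3 had no H3K4me3 peak. The range over the 10 epithelial markers was 47.3 to 82.9 and 0 to 59.4 for H3K4me3 in GD15M_CM and GD15M_LM, and 33.1 to 94.6 and 0 to 92.3 for H3K27ac. In whole muscle, fewer cells of a type and less signal per cell cannot be told apart, and the part of this epithelial signal in the differences between the layers was not tested.

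All 10 genes carried at least 1 peak of each mark in every list. Of all protein-coding genes, 73.7% had an H3K4me3 peak in GD15M_CM, 74.6% in GD15M_LM and 75.4% in CD15M_CM, and 73.9%, 73.1% and 75.8% had an H3K27ac peak in the same order. The strongest H3K4me3 peaks of the 10 genes had a median percentile of 79.3 in GD15M_CM, 79.7 in GD15M_LM and 75.5 in CD15M_CM. Over all genes with a peak in either list, the medians were 80.8 in GD15M_CM, 79.7 in GD15M_LM and 82.3 in CD15M_CM. For H3K27ac the medians of the 10 genes were 81.8, 77.9 and 71.4, and those over all genes were 87.1, 83.1 and 85.8, so that the 10 genes lay furthest below all genes in CD15M_CM for both marks. PTGES3 stood highest of the 10 in all lists, and PTGS1 lowest for H3K4me3 in all lists. For H3K27ac the lowest was PTGS2 in GD15M_CM, HPGD in GD15M_LM and PTGES2 in CD15M_CM.

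**Figure D1:**
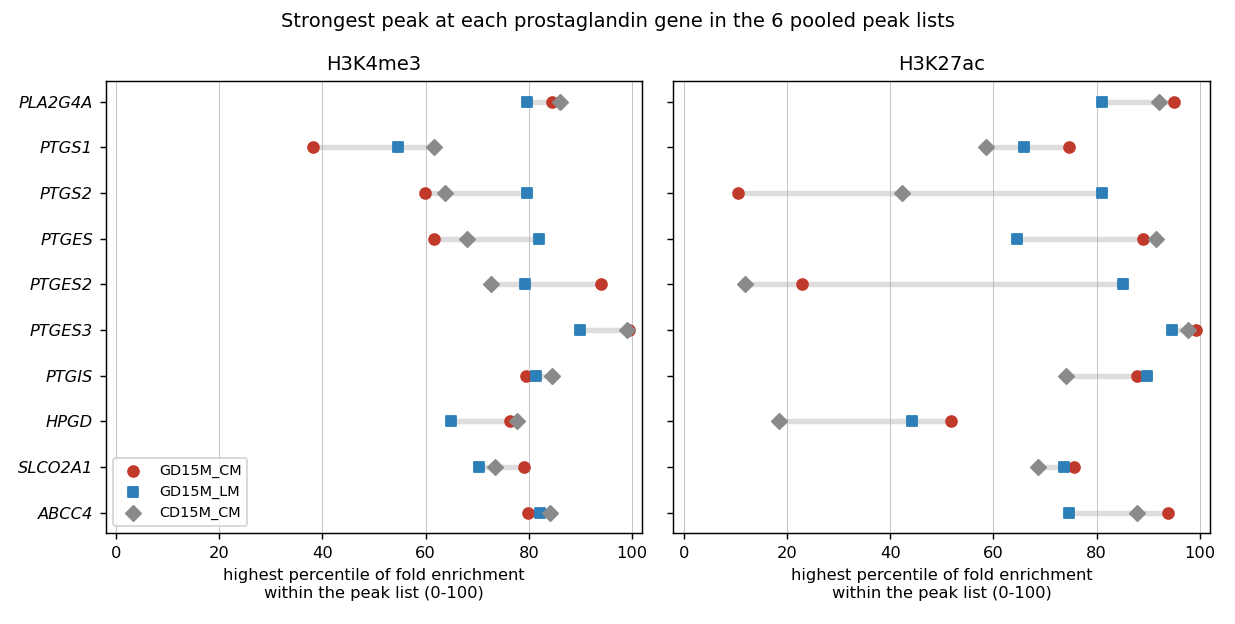
Highest percentile of fold enrichment at each of the 10 genes (x axis, 0 to 100) for H3K4me3 (left) and H3K27ac (right), 1 point per pooled peak list with no error available. The H3K4me3 points of a gene lie close together for most genes, while the H3K27ac points of PTGS2 run from 10.5 in GD15M_CM to 81.1 in GD15M_LM and those of PTGES2 from 11.9 in CD15M_CM to 85.1 in GD15M_LM.

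PLA2G4A encodes the cytosolic phospholipase A2 that releases arachidonic acid from membranes. Its gene model, chr9:127853581-128164825, is 311 kb long and overlaps the neighbouring PTGS2 model by 5286 bp, so the peak at the end of PTGS2 falls in the windows of both genes. No peak of either mark lay within 3 kb of its own ends in any list. Leaving that shared peak aside, the strongest peak of PLA2G4A in every list but the H3K27ac list of GD15M_LM lay inside the model, 147 kb from its low-coordinate end, at chr9:128000113-128001392. The fold of H3K4me3 there was 17.5 in GD15M_CM (percentile 84.5), 10.5 in GD15M_LM (62.5) and 22.0 in CD15M_CM (86.1). H3K27ac at the same place had a fold of 6.27 in GD15M_CM (percentile 95.1), 3.32 in GD15M_LM (31.9) and 5.66 in CD15M_CM (92.0). Both marks thus ranked high in the circular muscle of pregnant and of cyclic gilts and lower in the longitudinal muscle, with a gap between the layers of 22.0 points for H3K4me3 and 63.2 points for H3K27ac.

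A smaller internal region of PLA2G4A about 171 kb from the low-coordinate end also separated the layers in H3K27ac. Its percentile was 72.2 in GD15M_CM, 2.06 in GD15M_LM and 21.7 in CD15M_CM. Towards the high-coordinate end of the model the order was the other way round. At 278 kb, GD15M_LM had its strongest H3K27ac peak apart from the shared one, of percentile 73.0, CD15M_CM one of 6.39 and GD15M_CM none. At 298 kb the H3K27ac percentile was highest in CD15M_CM (72.5), with 33.4 in GD15M_LM and 16.7 in GD15M_CM. The 7 H3K27ac regions in the PLA2G4A window thus did not follow a single order of groups.

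PTGS1 encodes the cyclooxygenase found in most tissues. It had a single region of each mark in its 26.1 kb model (chr1:262456106-262482159), at the low-coordinate end, and the same region held peaks in all 3 groups. The H3K4me3 fold was 3.99 in GD15M_CM (percentile 38.2), 6.86 in GD15M_LM (54.7) and 7.20 in CD15M_CM (61.6), which made PTGS1 the lowest of the 10 genes for this mark in all 3 lists. The H3K4me3 peak was 560, 1011 and 876 bp long in the same order. H3K27ac had the opposite order, with percentiles of 74.6 in GD15M_CM, 65.9 in GD15M_LM and 58.6 in CD15M_CM. By fold, however, H3K27ac was 4.25, 4.37 and 3.74, so that GD15M_CM was above GD15M_LM by rank and not by fold.

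PTGS2 encodes the inducible cyclooxygenase, which is regulated by hormones and cytokines. In its 8.70 kb model (chr9:127850164-127858866) the only region of each mark lay across the high-coordinate end, at chr9:127858396-127859644 for H3K4me3. The H3K4me3 fold was 6.68 in GD15M_CM (percentile 59.8), 19.6 in GD15M_LM (79.7) and 8.48 in CD15M_CM (63.9), with peak lengths of 944, 1239 and 1243 bp. The H3K27ac fold was 2.57 in GD15M_CM (percentile 10.5), 5.30 in GD15M_LM (81.1) and 3.33 in CD15M_CM (42.4), with peak lengths of 203, 539 and 578 bp. Both marks were therefore strongest in the longitudinal muscle and weakest in the circular muscle of pregnant gilts, with the cyclic circular muscle between them. The H3K27ac difference between the pregnant layers was -70.5 points, and 0.975% of all genes with a peak in either layer had a difference as low or lower. For H3K4me3 the difference was -19.9 points, just short of the 20 points counted, and 7.45% of genes had one as low or lower. Between pregnant and cyclic circular muscle PTGS2 differed by -4.05 points for H3K4me3 and -31.8 points for H3K27ac.

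Among the 10 smooth muscle markers, 1 ranked higher in GD15M_CM than in GD15M_LM for H3K4me3 and 4 did so for H3K27ac, and their part in the PTGS2 difference was not tested.

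**Figure D2:**
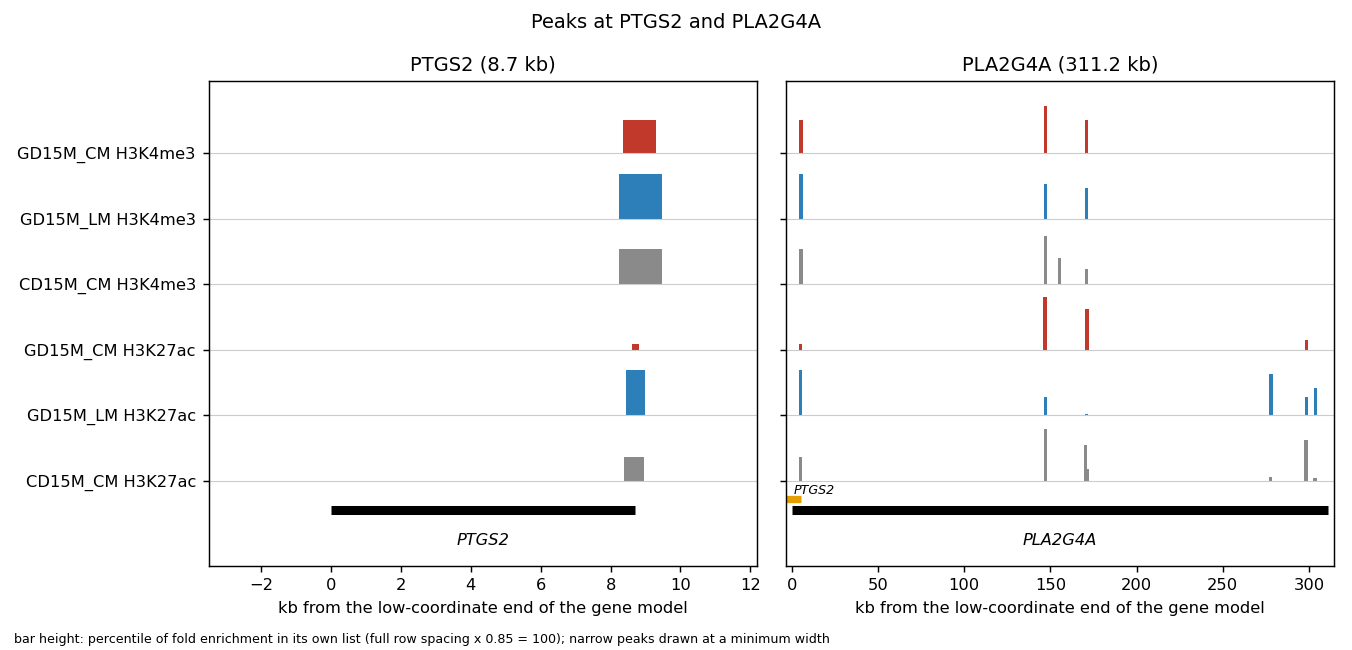
Peaks at PTGS2 (left) and PLA2G4A (right) in the 6 pooled lists, placed by distance in kb from the low-coordinate end of each gene model (black bar, with PTGS2 in orange beside PLA2G4A); bar height is the percentile of fold enrichment. The peak at the high-coordinate end of PTGS2 is tallest in GD15M_LM for both marks (79.7 and 81.1), and the PLA2G4A region near 147 kb is taller in both circular muscle lists than in GD15M_LM.

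Of the prostaglandin E synthases, PTGES is the inducible membrane enzyme that works with PTGS2. Its 12.7 kb model (chr1:269911785-269924481) had its main H3K4me3 region across the high-coordinate end, at chr1:269922107-269925597. The H3K4me3 fold there was 7.32 in GD15M_CM (percentile 61.6), 20.8 in GD15M_LM (81.9) and 11.2 in CD15M_CM (68.0). This is the same order of groups as at PTGS2, and the layers differed by -20.3 points. The H3K27ac percentiles at this end had another order, with 86.7 in GD15M_CM, 64.5 in GD15M_LM and 91.5 in CD15M_CM. GD15M_LM thus had the highest H3K4me3 and the lowest H3K27ac in the region across this end of PTGES. Beyond it, 14.7 to 15.8 kb from the low-coordinate end, another H3K27ac region had the other order. Its percentile was 31.0 in GD15M_CM, 60.7 in GD15M_LM and 34.8 in CD15M_CM.

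PTGES also had an H3K27ac region just outside the low-coordinate end of its model, from -1.22 to -0.157 kb. Its fold was 5.28 in GD15M_CM (percentile 89.0), 3.86 in GD15M_LM (51.4) and 3.16 in CD15M_CM (35.8), and it was about as long in each, at 1068, 1058 and 977 bp. The strongest H3K27ac peak of PTGES was here in GD15M_CM, and at the high-coordinate end in the other lists. At the level of the whole gene, PTGES H3K27ac was 89.0, 64.5 and 91.5. The gene therefore showed a pregnant to cyclic difference of -2.45 points, while this region alone differed by 53.2 points.

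PTGES2, a prostaglandin E synthase of the Golgi membrane and cytosol, had the longest H3K4me3 signal of the 10 genes. In its 5.63 kb model (chr1:268585725-268591356) the main H3K4me3 region, chr1:268587206-268593230, held 5504, 5787 and 5866 bp of peaks in GD15M_CM, GD15M_LM and CD15M_CM, and its strongest peak stood at length percentiles of 97.7, 94.9 and 95.1. The fold was 23.1 in GD15M_CM (percentile 93.9), 19.4 in GD15M_LM (79.3) and 14.3 in CD15M_CM (72.8). The difference of 21.2 points between pregnant and cyclic circular muscle was reached or passed by 2.30% of all genes with a peak.

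The H3K27ac at PTGES2 did not follow its H3K4me3. Inside the same region it had a fold of 2.64 over 3942 bp in GD15M_CM (percentile 13.1), 5.68 over 3294 bp in GD15M_LM (85.1) and 2.11 over 3834 bp in CD15M_CM (0.811). The peaks were thus long in all groups, and it was their fold that differed. Taking the strongest H3K27ac peak anywhere in the window, the values were 22.8 in GD15M_CM, 85.1 in GD15M_LM and 11.9 in CD15M_CM. Between the layers this was a difference of -62.3 points, and 1.87% of genes had one as low or lower. With the window widened to 10 kb on both sides, which takes in more peaks, the difference was -6.81 points.

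**Figure D3:**
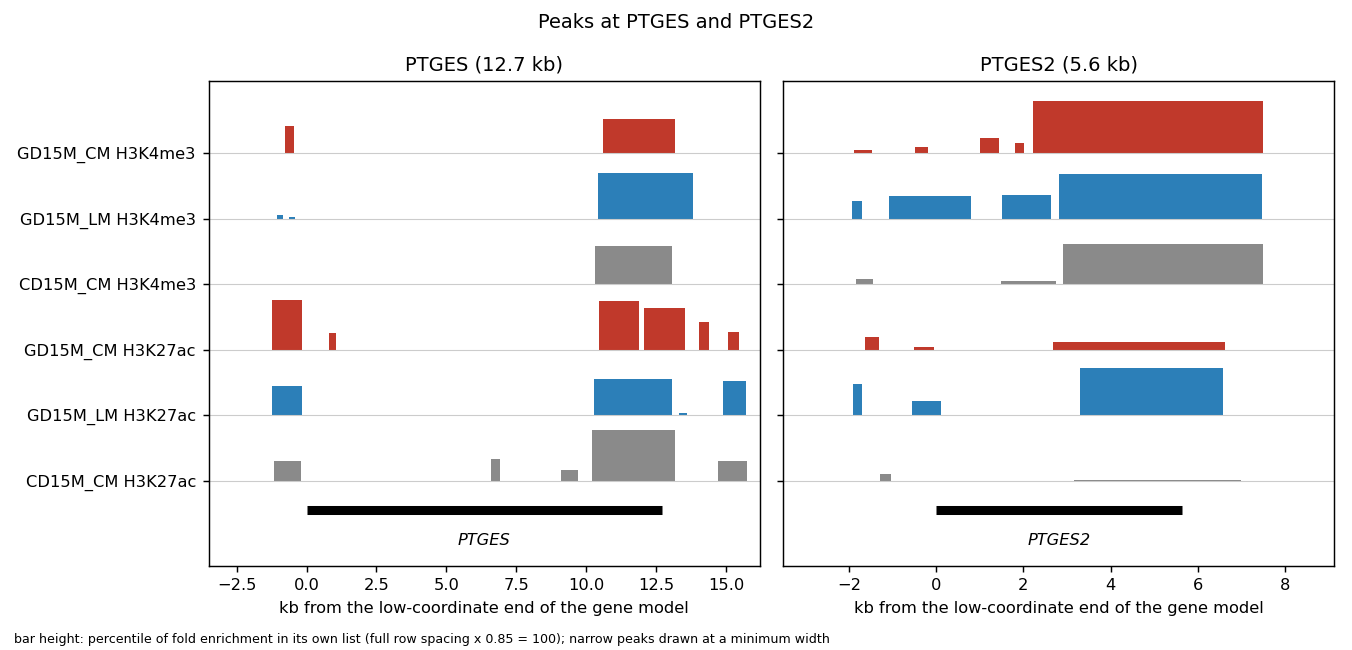
Peaks at PTGES (left) and PTGES2 (right) in the 6 pooled lists by distance in kb from the low-coordinate end of the gene model (black bar); bar height is the percentile of fold enrichment. At PTGES, GD15M_LM has the tallest H3K4me3 bar at the high-coordinate end (81.9) and GD15M_CM the tallest H3K27ac bar before the low-coordinate end (89.0), and at PTGES2 the long H3K27ac bar is tall only in GD15M_LM (85.1).

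PTGES3, also known as the HSP90 cochaperone p23, is a cytosolic prostaglandin E synthase that most cells make. It was strongly marked in every list, at the high-coordinate end of its 22.5 kb model (chr5:22000335-22022830). The H3K4me3 fold was 33.4 in GD15M_CM, 25.6 in GD15M_LM and 39.4 in CD15M_CM, at percentiles of 99.4, 89.9 and 99.1. For H3K27ac the fold was 8.61, 7.15 and 7.02 and the percentile 99.3, 94.7 and 97.7. No difference between groups reached 10 points.

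PTGIS, the prostacyclin synthase, makes a relaxant of smooth muscle and blood vessels. Its main region of both marks lay across the high-coordinate end of a 47.4 kb model (chr17:51153151-51200515). The H3K4me3 fold was 15.3 in GD15M_CM (percentile 79.4), 20.6 in GD15M_LM (81.5) and 21.0 in CD15M_CM (84.5), over 3499, 3774 and 3386 bp. H3K27ac ranked at 87.8 in GD15M_CM, 89.8 in GD15M_LM and 74.1 in CD15M_CM. Pregnant layers differed by -2.05 points for H3K4me3 and -1.97 points for H3K27ac. PTGIS also held the most H3K27ac peaks of the 10 genes in CD15M_CM, with 9, although a single internal region, 40.3 kb from the low-coordinate end, passed a percentile of 60 in all 3 lists (60.9, 67.5 and 69.4).

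The transporter SLCO2A1, known as the prostaglandin transporter, takes prostaglandins into cells. Its H3K4me3 region crossed the high-coordinate end of the 81.1 kb model (chr13:75108540-75189660), with a fold of 15.1 in GD15M_CM (percentile 79.1), 14.8 in GD15M_LM (70.4) and 14.7 in CD15M_CM (73.4). H3K27ac at this end ranked at 75.7 in GD15M_CM, 21.8 in GD15M_LM and 68.7 in CD15M_CM. In the longitudinal muscle the strongest H3K27ac peak of SLCO2A1 lay instead inside the gene, 19.1 kb from the low-coordinate end, with a percentile of 73.7 against 56.7 in GD15M_CM and 24.4 in CD15M_CM. The gene-level percentiles of 75.7, 73.7 and 68.7 were thus close to each other and came from different places in the gene.

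ABCC4 encodes an efflux pump of the ABC family that exports prostaglandins. Its 221 kb model (chr11:64089149-64309831) had the same arrangement. H3K4me3 at the high-coordinate end ranked at 79.8 in GD15M_CM, 82.3 in GD15M_LM and 84.1 in CD15M_CM, with folds of 15.5, 21.0 and 20.7. H3K27ac at this end had a fold of 5.97 in GD15M_CM (percentile 93.8), 3.46 in GD15M_LM (37.0) and 5.16 in CD15M_CM (87.8). Inside the gene and 14.5 kb from this end, a second H3K27ac region had a fold of 4.84 in GD15M_LM (percentile 74.7), against 1.99 (0.16) in GD15M_CM and 2.55 (9.60) in CD15M_CM. A further internal region, 70.5 kb from the low-coordinate end, carried H3K4me3 at percentiles of 7.45 in GD15M_CM, 52.1 in GD15M_LM and 42.2 in CD15M_CM, and H3K27ac only in GD15M_LM (36.5).

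**Figure D4:**
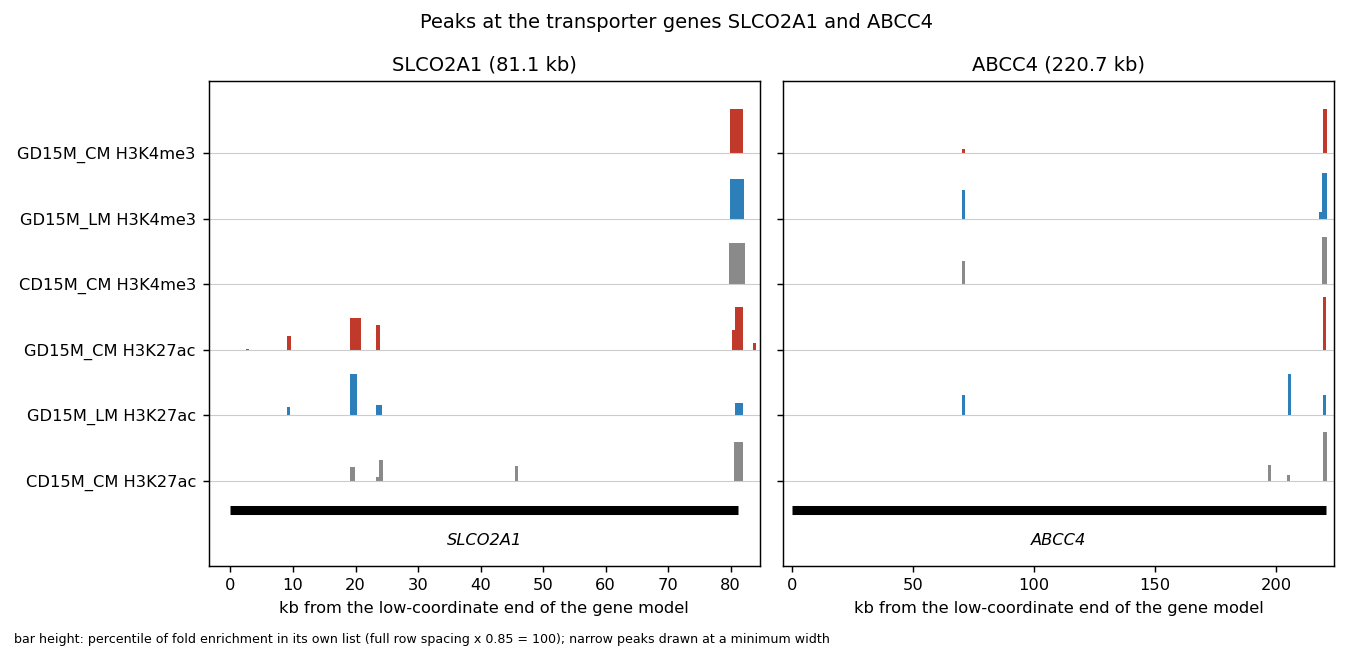
Peaks at SLCO2A1 (left) and ABCC4 (right) in the 6 pooled lists by distance in kb from the low-coordinate end of the gene model (black bar); bar height is the percentile of fold enrichment. At the high-coordinate end of both genes the H3K4me3 bars are of like height in the 3 groups while the H3K27ac bar is lower in GD15M_LM (21.8 and 37.0), and an internal H3K27ac bar is tallest in GD15M_LM (73.7 and 74.7).

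HPGD encodes 15-hydroxyprostaglandin dehydrogenase, which inactivates prostaglandin E2 and prostaglandin F2 alpha. It had a single region of each mark, at the low-coordinate end of a 55.3 kb model (chr14:15718261-15773534). The H3K4me3 fold was 13.9 in GD15M_CM (percentile 76.3), 11.8 in GD15M_LM (64.8) and 17.1 in CD15M_CM (77.7), over 2588, 3176 and 3200 bp. H3K27ac was weak, with folds of 3.54 in GD15M_CM (percentile 51.7), 3.63 in GD15M_LM (44.1) and 2.78 in CD15M_CM (18.5). In GD15M_CM it was split into 3 peaks of 236, 265 and 601 bp, and the value is that of the 236 bp peak. GD15M_LM had 1 peak of 708 bp and CD15M_CM 1 of 1410 bp. Next to a promoter-type H3K4me3 region of usual rank, HPGD thus had H3K27ac in the lower part of the list in the cyclic circular muscle. The difference of 33.3 points between pregnant and cyclic circular muscle was reached or passed by 7.75% of all genes with a peak. Ranked by −log10 p in place of fold, it was 9.65 points and no longer counted as large.

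Between the layers of pregnant gilts, 5 of the 10 genes ranked higher in GD15M_CM for H3K4me3 (PLA2G4A, PTGES2, PTGES3, HPGD and SLCO2A1), against 51.8% of all 14868 genes with a peak. None was at least 20 points higher in GD15M_CM (6.85% of all genes) and 1, PTGES, was at least 20 points higher in GD15M_LM (7.41%). For H3K27ac, 7 genes ranked higher in GD15M_CM (56.8% of all 14970 genes), and PTGS2, PTGES2 and PTGIS ranked higher in GD15M_LM. By fold, however, PTGS1 (4.25 and 4.37), HPGD (3.54 and 3.63) and SLCO2A1 (4.30 and 4.77) were lower in GD15M_CM than in GD15M_LM. With lists of equal length the percentile differences of PTGS1, HPGD and SLCO2A1 were -1.53, -9.97 and -7.77 points. Only PTGES was at least 20 points higher in GD15M_CM (19.7%), while PTGS2 and PTGES2 were at least 20 points higher in GD15M_LM (13.2%). The PTGES differences fell short of 20 points when peaks were ranked by −log10 p, at -11.7 for H3K4me3 and 18.9 for H3K27ac, and under stricter peaks (fold of 5 or more and −log10 p of 10 or more) the H3K27ac difference was 15.5. In 10 genes, counts of this size are close to these shares. PLA2G4A enters these counts with the peak it shares with PTGS2, which is its strongest of both marks in GD15M_LM (79.7 and 81.1). Without that peak it was higher in GD15M_CM by 22.0 points in each mark, so that the large differences numbered 2 for H3K4me3 and 4 for H3K27ac. The median difference of the 10 genes was 1.36 points for H3K4me3, against 0.42 over all genes, and 6.15 for H3K27ac, against 1.97.

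Between pregnant and cyclic circular muscle, which again uses the GD15M_CM lists, 3 genes ranked higher in pregnancy for H3K4me3 (PTGES2, PTGES3 and SLCO2A1), against 40.7% of all 14888 genes. PTGES2 was at least 20 points higher in GD15M_CM (2.81%) and PTGS1 at least 20 points higher in CD15M_CM (7.97%). Ranked by −log10 p, these differences were 13.0 and -14.1 points, and for PTGS1 the difference under stricter peaks was -15.4. For H3K27ac, 8 of the 10 genes ranked higher in pregnancy, the exceptions being PTGS2 and PTGES, against 49.7% of all 15169 genes. This count was 6 when ranked by −log10 p and 4 of 5 genes with a peak under stricter peaks, and the direction changed under at least 1 alternative at PLA2G4A, PTGS1, PTGES, PTGIS and SLCO2A1. HPGD was at least 20 points higher in GD15M_CM (14.5%) and PTGS2 at least 20 points higher in CD15M_CM (15.7%). With lists of equal length the PTGS2 difference was -18.95 points. Beside this comparison, 7 of 10 epithelial markers ranked higher in GD15M_CM for H3K27ac (medians 76.2 and 70.9) and 1 of 7 fibroblast and stroma markers did so (medians 59.3 and 92.4); the part of these cells in the differences was not tested.

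**Figure D5:**
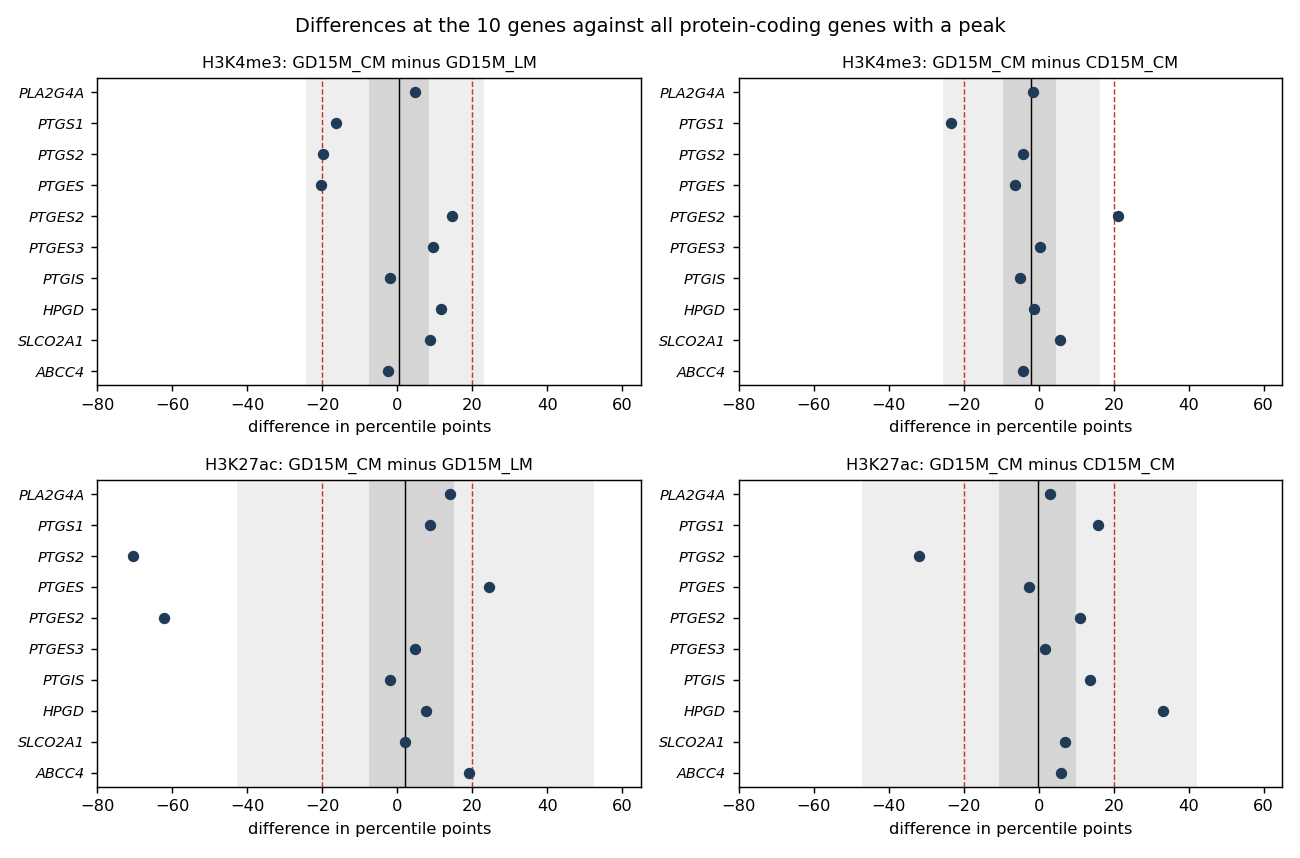
Difference in percentile points at each of the 10 genes (points), for H3K4me3 (top) and H3K27ac (bottom), with GD15M_CM minus GD15M_LM on the left and GD15M_CM minus CD15M_CM on the right; grey bands hold the middle 50% and 90% of all protein-coding genes with a peak in either list, the black line is their median and dashed lines mark 20 points. Most points lie within the outer band, and PTGS2 (-70.5) and PTGES2 (-62.3) lie outside it for H3K27ac between the layers, as PTGES2 (21.2) does for H3K4me3 between pregnancy and cycle.

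The single regions gave a fuller picture than the strongest peak of a gene. Overlapping peaks of the 3 lists of a mark were joined to regions, which gave 25 H3K4me3 and 46 H3K27ac regions at the 10 genes. A peak in all 3 lists was found in 16 H3K4me3 regions (64%), against 44.2% of all 42577 regions, and in 20 H3K27ac regions (43.5%), against 31.4% of all 103503. All regions include those far from any gene, while those of the 10 genes lay in or within 3 kb of a gene. The bases are thus unlike, and these counts are no result about the 10 genes. The same holds for the shares of all regions given below. Each gene had at least 1 region of each mark that was present in all 3 groups. Of the regions seen in a single list, 8 were H3K4me3 regions with percentiles up to 47.2 and 20 were H3K27ac regions, 4 of which passed 50. These were peaks of CD15M_CM inside PTGES3 (71.9), PTGIS (69.1) and PLA2G4A (64.7) and a peak of GD15M_LM beside PTGES2 (55.5).

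Between the layers, 4 of 23 H3K4me3 regions were at least 20 points higher in GD15M_CM (18.2% of all regions) and 4 in GD15M_LM (19.2%). By percentile, the strongest of these were the internal PLA2G4A region in GD15M_CM (84.5) and the high-coordinate end of PTGES in GD15M_LM (81.9). Their differences, 22.0 and -20.3 points, were not the largest. Those were 46.0 points just outside the low-coordinate end of PTGES and -44.6 points inside ABCC4, at regions of lower percentile. Among 35 H3K27ac regions, 13 were at least 20 points higher in GD15M_CM (43.5%) and 10 in GD15M_LM (20.7%). The first set includes the gene-end regions of PTGES, SLCO2A1 and ABCC4 and the internal region of PLA2G4A. The second includes PTGS2, PTGES2 and the internal region of ABCC4. Between pregnant and cyclic circular muscle, 5 of 22 H3K4me3 regions were at least 20 points higher in GD15M_CM (12.4%) and 4 in CD15M_CM (23.3%), and for H3K27ac these were 10 (29.5%) and 13 (33.3%) of 44.

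At the region of highest H3K4me3 of each gene, the length of the H3K4me3 peaks differed in the same direction at most genes. It was shorter in GD15M_CM than in GD15M_LM at 9 of 10 genes, PTGES3 being the exception, and shorter than in CD15M_CM at 8 of 10, with PTGES3 and PTGIS as exceptions. Over all genes the median length of the strongest H3K4me3 peak was also shortest in GD15M_CM, at 2505 bp. It was 2669 bp for the longitudinal layer and 2736 bp for the cyclic circular layer. These medians are of single peaks, while the lengths at the 10 genes are summed over the peaks of a region. The share of all genes with a shorter length in GD15M_CM was not computed, so the counts are no result about the 10 genes. The region of highest H3K4me3, joined over the 3 lists, lay across an end of the gene model at 9 of the 10 genes. It was the high-coordinate end for PTGS2, PTGES, PTGES2, PTGES3, PTGIS, SLCO2A1 and ABCC4 and the low-coordinate end for PTGS1 and HPGD. PLA2G4A was the exception. Within single lists, the strongest H3K4me3 peak lay on an end at 8 genes in GD15M_CM, 9 in GD15M_LM and 9 in CD15M_CM. Of all genes with a peak, 74.5%, 75.2% and 75.5% had it there, and counts of this size in 10 genes are close to these shares. Since the gene models were used without strand, it cannot be said from them which end is the transcription start.

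H3K27ac covered the greater part of the H3K4me3 peaks in these regions in most cases. The share was taken of the length of each group's own H3K4me3 peaks in the region, which differs between groups. Its median was 71.5% in GD15M_CM, 56.6% in GD15M_LM and 77.7% in CD15M_CM. For the strongest H3K4me3 peak of all genes it was 74.0%, 57.9% and 68.3%. PTGS2 had the lowest share of the 10 genes in GD15M_CM, 21.5%, and HPGD had the lowest in the other lists, with 22.3% in GD15M_LM and 44.1% in CD15M_CM. The largest was 92.5% at PTGES in GD15M_CM, 90.3% at PTGS1 in GD15M_LM and 100% at PTGES in CD15M_CM.

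The other genes of the pathway were taken from fixed lists for arachidonate release, other prostanoid synthases, breakdown, transport and the lipoxygenase and related oxidation routes. Of 39 genes, 31 could be placed once by symbol, and 20 of these had an H3K4me3 peak in GD15M_CM, 22 in GD15M_LM and 20 in CD15M_CM. For H3K27ac the counts were 24, 23 and 25. Neighbouring genes in the windows of these genes were not looked for, so a peak counted here may belong to another gene. Between the layers, 10 of the 31 ranked higher in GD15M_CM for H3K4me3 and 13 for H3K27ac, and genes without a peak in either list were not counted as higher in any. No placed gene was at least 20 points higher in GD15M_CM for H3K4me3 and 2 were so in GD15M_LM, while for H3K27ac these counts were 5 and 2. Over all genes with a peak in either list, the shares ranked higher in GD15M_CM were 51.8% and 56.8%. The shares at least 20 points higher in GD15M_CM and in GD15M_LM were 6.85% and 7.41% for H3K4me3. For H3K27ac they were 19.7% and 13.2%. The 31 include genes with no peak in either list, which these shares leave out. The counts and shares thus have unlike bases, and the counts are no result about the pathway.

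For H3K4me3 the 4 largest differences between the layers were all towards the longitudinal muscle. The efflux pump gene ABCC1 was at 53.2 in GD15M_LM with no peak in GD15M_CM. The organic anion transporter gene SLCO4A1 was at 48.2 in GD15M_LM and 3.53 in GD15M_CM. The monoglyceride lipase gene MGLL (80.9 and 68.0) and the thromboxane synthase gene TBXAS1 (59.2 and 46.6) followed. For H3K27ac, HPGDS, a prostaglandin D synthase, was at 37.3 in GD15M_CM with no peak in GD15M_LM, and the organic anion transporter gene SLC22A6 was at 49.5 and 22.7. In the other direction MGLL was at 58.3 in GD15M_CM and 92.3 in GD15M_LM, and the phospholipase gene PLA2G4B at 13.2 and 37.3.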

How the data were processed

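CUT&Tag libraries of H3K4me3, H3K27ac and IgG from 3 groups of myometrium with 2 gilts each were grouped by the titles in the labels. The authors mapped reads to Sus scrofa 11.1 with BWA v0.7.17, filtered out duplicate and poorly mapped reads (Picard v2.8.3, SAMtools v1.9) and, after pooling the replicates, ran MACS2 v2.2.6 with IgG as control. The deposited fold enrichment is a ratio of mark over IgG, and how the libraries were scaled is not given in the sources used here. The deposited −log10 p of a peak had an unreadable column name and was identified by its identity with the study's own peak list; it served only as an alternative ranking and filter. Peak lengths were used as deposited.

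Genes were RefSeq models of Sscrofa11.1 matched by symbol, without strand, and no sequence was used. The percentile of a peak is its average rank by fold enrichment in its list. Peaks overlapping a gene and 3 kb on both sides were assigned to it. Python 3.11.15, pandas 2.3.3, NumPy 2.4.6 and Matplotlib 3.10.9 were used, and the rank, overlap and joining code was tested on simulated data. The pathway genes named are the 10 genes of the list and, from the other pathway genes, the 4 of largest percentile difference between GD15M_CM and GD15M_LM for each mark. Further pathway genes were named under the other observations after their values were seen. The genes, pathway lists and marker lists were chosen with earlier results of these data known.

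Alternatives were stricter peaks (fold of 5 or more and −log10 p of 10 or more), equal list lengths, ranking by −log10 p, the gene model ends instead of the whole gene, a 10 kb window, and joining of peaks less than 1 kb apart. Others were added after seeing the data.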

Additional observations from a re-analysis of the deposited data

How the results depend on the processing

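Each result is a value of pooled libraries, so no result had a test or a threshold of significance. No paired analysis was possible because the replicates of a group had been pooled before peak calling, and leaving out a replicate was not possible for the same reason. H3K4me3 peaks were listed at 9 or 10 of the 10 genes under every alternative. PLA2G4A had none within 3 kb of either gene end in any list, and PTGS1 none in GD15M_CM under the strict threshold. Under the strict threshold (fold of 5 or more and −log10 p of 10 or more), which keeps fewer peaks, 5, 3 and 4 of them had an H3K27ac peak in GD15M_CM, GD15M_LM and CD15M_CM.

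The number of genes at least 20 points apart between the layers for H3K4me3, 1 as reported, was 3 under the strict threshold, 0 when ranked by −log10 p, and 2 with equal list lengths, joined peaks, the shared peak left out of PLA2G4A, differences centred on the median of all genes, or the region of highest H3K4me3 only. For H3K27ac the number, 3 as reported, was 5 of 6 genes with a peak under the strict threshold and 5 of 9 with the gene ends as window. It was 6 at the region of highest H3K4me3 only and 4 with joined peaks or the shared peak left out of PLA2G4A. When ranked by −log10 p or with the 10 kb window it was 2. Between pregnant and cyclic circular muscle the H3K4me3 number, 2 as reported, was 1 under the strict threshold and 0 when ranked by −log10 p. The number of genes ranked higher in GD15M_CM than in CD15M_CM for H3K4me3 went from 3 to 5 with centring and that for H3K27ac from 8 to 4, of 5 genes with a peak, under the strict threshold. The number ranked higher in GD15M_CM than in GD15M_LM for H3K27ac went from 7 to 4, of 6 genes with a peak, under the strict threshold and to 4 with equal list lengths. The cause was not tested. Centring, the shared peak and the region of highest H3K4me3 were alternatives chosen after seeing the data.

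Among single genes, PTGS2 ranked lower in GD15M_CM than in GD15M_LM under each of 8 alternatives for H3K27ac, by -81.1 to -52.5 points, and under each of 9 for H3K4me3, by -46.8 to -6.74. PTGS2 had 1 peak of each mark per list. The gene-end window, the 10 kb window, the shared peak and the region of highest H3K4me3 gave back the reported differences. Centring shifts all genes alike, so these alternatives are no separate support. Under the strict threshold PTGS2 had no H3K27ac peak in either layer. PTGES2 H3K27ac ranged from -79.1 to -6.81 points between the layers. For H3K27ac the direction changed under at least 1 alternative at PTGS1, HPGD and SLCO2A1 between the layers, and at PLA2G4A, PTGS1, PTGES, PTGIS and SLCO2A1 between pregnant and cyclic circular muscle. Fold enrichments that differ by a small amount can be many ranks apart in H3K27ac, where the middle 50% of folds in GD15M_CM lay between 2.95 and 4.28.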

Other observations

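Among the other pathway genes, 6 of the 31 placed genes were at least 20 points higher for H3K27ac in CD15M_CM than in GD15M_CM and 2 were higher in GD15M_CM. Over all genes with a peak in either list these shares were 15.7% and 14.5%. The 31 include genes with no peak in either list, which these shares leave out. The counts and shares thus have unlike bases, and the counts are no result about the pathway. The genes named next were singled out after their values were seen. The fatty acid ligase gene ACSL4, whose product activates arachidonic acid for re-esterification, was at 39.6 in GD15M_CM and 87.5 in CD15M_CM. The carbonyl reductase gene CBR3 was at 28.8 and 92.8, the prostaglandin reductase gene PTGR1 at 69.1 and 91.8, and MGLL at 58.3 and 85.8. SLC22A6 was at 49.5 and 82.2, and PLA2G4F had no peak in GD15M_CM and one of 37.6 in CD15M_CM. In the other direction, LTA4H, which encodes leukotriene A4 hydrolase, was at 91.3 in GD15M_CM and 57.3 in CD15M_CM, and the efflux pump gene ABCC2 at 96.3 and 64.4.

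Peaks lay in the windows of some leukotriene and lipoxygenase genes, while others had no peak in any list. These genes too were singled out after their values were seen. Neighbouring genes in the windows were not looked for, so a peak listed here may belong to another gene. ALOX12, an arachidonate lipoxygenase gene, had H3K4me3 percentiles of 97.6 in GD15M_CM, 86.8 in GD15M_LM and 95.8 in CD15M_CM. ALOX5AP, whose product presents arachidonic acid to 5-lipoxygenase, had 84.4, 86.0 and 88.1. No peak of either mark was listed at ALOX15 in any of the 6 lists, nor at the phospholipase genes PLA2G2A and PLA2G5 or the carbonyl reductase gene CBR1.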
